A study of Mus musculus with 2 samples.

Results

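The genes described are 8 that mark alternatively activated and tissue-resident macrophages, namely Mrc1, Cd163, Folr2, Lyve1, Mgl2, Retnla, Chil3 and Ccl24, of 27998 genes listed in the data. They were chosen by name, and all 8 had UMIs (unique molecular identifiers, each a counted RNA molecule) in both libraries. Leukocytes were sorted as CD45+ DAPI− cells from YUMM1.7 tumours, a mouse melanoma line, which had grown for 19 days after 100000 cells were placed under the flank skin. The hosts carried human APOE4 or human APOE2 knocked in at the mouse gene, and no host with mouse Apoe was analysed here. Each genotype gave 1 droplet library pooled from 6 mice, with 5385 annotated cells in the APOE4 library and 4665 in the APOE2 library. The labels state no strain, sex or age of the hosts. With 1 pool per genotype there is no replicate error, so no difference below was tested. Brackets give 95% intervals, exact binomial for ratios of UMI sums and for shares of cells, which cover counting error only, and each value compares these libraries rather than the genotypes.

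Macrophages exposed to interleukin 4 or interleukin 13 switch on a set of genes through the receptor chain IL4RA and the transcription factor STAT6, a state called alternative or M2-like activation. Several of the same genes are also carried, without such a stimulus, by macrophages that reside along vessels and in connective tissue. In tumours, cells of this kind are known for clearing debris, supporting vessels and restraining T cells.

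The members are protein-coding genes spread over 7 chromosomes of mm10 in the GENCODE M21 annotation. Mrc1 lies at chr2:14229392-14332057 (+), Cd163 at chr6:124304656-124330527 (+), Folr2 at chr7:101839988-101857194 (−) and Lyve1 at chr7:110850607-110863239 (−). Mgl2 lies at chr11:70130329-70137550 (+), Retnla at chr16:48842551-48844461 (+), Chil3 at chr3:106147554-106167564 (−) and Ccl24 at chr5:135569937-135573049 (−). Promoter windows of 300 bases, 250 before and 50 from the start site on, were matched in RefSeq (GRCm38.p6) for 6 of the 8 members. Ccl24 and Lyve1 had no entry. The windows of 4 members are shown, Retnla and Mrc1 as genes read chiefly in macrophages, Chil3 as one read chiefly in monocytes and Mgl2 as one shared with dendritic cells. Capitals mark a match to 1 of the motifs searched on both strands, which were STAT6 (TTC and GAA with any 4 bases between), other STAT factors (TTCNNNGAA), C/EBP (TTGCNNAA), PU.1 (GAGGAAG) and the interferon element (GAAA, any 2 bases, GAAA).
Retnla, chr16:48842359-48842658 (+): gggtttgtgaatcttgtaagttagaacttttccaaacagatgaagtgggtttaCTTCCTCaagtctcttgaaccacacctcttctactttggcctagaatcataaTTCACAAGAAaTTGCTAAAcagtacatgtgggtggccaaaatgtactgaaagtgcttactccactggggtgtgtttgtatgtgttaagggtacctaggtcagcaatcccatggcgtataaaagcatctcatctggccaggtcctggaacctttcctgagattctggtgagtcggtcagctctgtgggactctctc
Mrc1, chr2:14229164-14229463 (+): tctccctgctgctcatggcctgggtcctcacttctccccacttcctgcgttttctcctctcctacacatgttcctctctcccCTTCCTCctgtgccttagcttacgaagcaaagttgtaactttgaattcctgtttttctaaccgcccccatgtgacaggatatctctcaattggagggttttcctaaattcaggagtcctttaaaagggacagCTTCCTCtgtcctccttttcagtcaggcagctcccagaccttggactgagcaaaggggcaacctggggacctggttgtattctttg
Chil3, chr3:106167515-106167814 (−): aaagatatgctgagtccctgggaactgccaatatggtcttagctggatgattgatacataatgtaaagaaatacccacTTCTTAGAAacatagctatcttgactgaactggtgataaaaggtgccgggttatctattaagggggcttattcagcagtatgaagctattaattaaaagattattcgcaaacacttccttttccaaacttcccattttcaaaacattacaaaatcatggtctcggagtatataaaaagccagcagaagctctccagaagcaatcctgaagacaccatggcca
Mgl2, chr11:70130107-70130406 (+): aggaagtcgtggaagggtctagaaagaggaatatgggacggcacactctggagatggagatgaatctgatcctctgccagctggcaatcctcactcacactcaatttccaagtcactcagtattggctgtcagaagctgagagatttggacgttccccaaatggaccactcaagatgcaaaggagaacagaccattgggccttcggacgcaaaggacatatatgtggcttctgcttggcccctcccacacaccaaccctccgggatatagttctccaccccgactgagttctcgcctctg
The Retnla window held the STAT6 motif with its first base at −145, directly before a C/EBP motif at −134, and a PU.1 motif on the minus strand at −197. The Mrc1 window held PU.1 motifs on the minus strand at −168 and −36. The Chil3 window held the shorter STAT motif at −172. No searched motif was in the windows of Mgl2, Cd163 or Folr2, which says only that these letters were not there. Of all 32817 windows in the table, 6.94% held the STAT6 motif, 8.29% the shorter STAT motif, 10.8% the C/EBP motif, 13.6% the PU.1 motif and 3.43% the interferon element, so a match is a description of the sequence and no evidence of binding.

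Cell names are those of the authors. Monocytes 1 to 3, Mø clusters 1 and 2 and the skin resident Mø were joined as the monocyte/macrophage class, with 1557 cells and 12245801 UMIs in the APOE4 library and 1734 cells and 16174106 UMIs in the APOE2 library. Median UMIs per cell of the class were 7046 in APOE4 and 8009.5 in APOE2. The Mø names held against their markers: all 11 macrophage markers were detected in both Mø clusters of both libraries, summing to 15570 CPM (the label's UMIs of the genes over all its UMIs, times 1000000) in APOE4 and 16907 CPM in APOE2 in Mø cluster 1, and to 10759 and 12007 CPM in Mø cluster 2 (APOE4 and APOE2). The skin resident Mø label, with 8 cells in APOE4 and 47 in APOE2, did not, since its neutrophil markers summed to 5487 and 7224 CPM in APOE4 and APOE2 and its macrophage markers to 2440 and 2949 CPM. The libraries shared 8 barcodes among annotated cells, and 5 cells of this class carried one.

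Over the class, 7 members were lower in the APOE4 library by at least 2-fold and 1, Chil3, was higher by at least 2-fold. Of 11508 genes that reached 20 UMIs over both libraries, 6.56% were that much lower and 3.74% that much higher. Mrc1, the mannose receptor, stood at 223 CPM in APOE4 against 782 CPM in APOE2 (2734 UMIs in APOE4 and 12645 in APOE2), 3.50-fold lower [3.36, 3.65]. Folr2, a folate receptor of resident macrophages, stood at 46.8 CPM in APOE4 against 163 CPM in APOE2 (573 UMIs in APOE4 and 2638 in APOE2), 3.49-fold lower [3.18, 3.82]. These were the smallest differences among the 7. Cd163, the scavenger receptor for haemoglobin bound to haptoglobin, was at 5.55 CPM in APOE4 and 22.4 CPM in APOE2 (68 UMIs in APOE4 and 363 in APOE2), 4.04-fold lower [3.11, 5.32]. Mgl2, a lectin that binds galactose-type sugars, was at 61.0 CPM in APOE4 and 238 CPM in APOE2 (747 UMIs in APOE4 and 3847 in APOE2), 3.90-fold lower [3.60, 4.22]. The intervals of these receptors and lectins overlap or nearly touch. Further apart were the secreted Retnla and Ccl24 and the hyaluronan receptor Lyve1. Retnla, which encodes RELMα, was at 68.5 CPM in APOE4 against 445 CPM in APOE2 (839 UMIs in APOE4 and 7200 in APOE2), 6.50-fold lower [6.05, 6.99]. Lyve1 was at 4.65 CPM in APOE4 against 38.5 CPM in APOE2 (57 UMIs in APOE4 and 622 in APOE2), 8.26-fold lower [6.29, 11]. Ccl24, a chemokine that draws eosinophils through CCR3, was at 1.80 CPM in APOE4 against 19.5 CPM in APOE2 (22 UMIs in APOE4 and 315 in APOE2), 10.8-fold lower [7.03, 17.5]. Chil3, which encodes the chitinase-like protein Ym1, was at 370 CPM in APOE4 and 184 CPM in APOE2 (4537 UMIs in APOE4 and 2971 in APOE2), 2.02-fold higher [1.93, 2.11]. For the sparsest members, exact Poisson intervals of the CPM were [1.13, 2.72] in APOE4 and [17.4, 21.7] in APOE2 for Ccl24. For Cd163 they were [4.31, 7.04] in APOE4 and [20.2, 24.9] in APOE2. The 2-fold call of Chil3 did not hold under several settings, with log2 ratios of 0.77 in thinned cells, 0.68 in cells under 5% mitochondrial UMIs, 0.92 with equal weight per label and 0.94 without the skin resident Mø, against 1.01. That of Cd163 did not hold with equal weight per label, at −0.45 against −2.01.

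The make-up of the class differed between the libraries along with these levels. Mø cluster 1 was 15.7% of the class in APOE4 and 27.7% in APOE2, and Mø cluster 2 was 10.3% in APOE4 and 23.0% in APOE2. Monocytes 2 were a larger share in APOE4, at 33.8% in APOE4 and 11.9% in APOE2. Since the members may have helped to shape these clusters, the label sizes are not independent of them. When the APOE4 levels of each label were weighted by the APOE2 label mix, a setting chosen after seeing the data, the 7 lower members stayed lower, from 1.87-fold for Folr2 and 2.16-fold for both Mrc1 and Cd163, through 2.32-fold for Mgl2 and 3.34-fold for Retnla, to 4.22-fold for Lyve1 and 7.88-fold for Ccl24. Chil3 was then 1.11-fold higher. With the APOE2 label levels held and the mix alone changed to that of APOE4, Chil3 was 1.97-fold higher, Retnla 1.97-fold lower and Mgl2 1.33-fold lower. That value of Chil3 is near its class ratio, and Ccl24 was 1.52-fold lower in the same setting, against 10.8-fold over the class. These settings do not divide a class ratio into parts, and the part of the label mix was not tested.

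**Figure D1:**
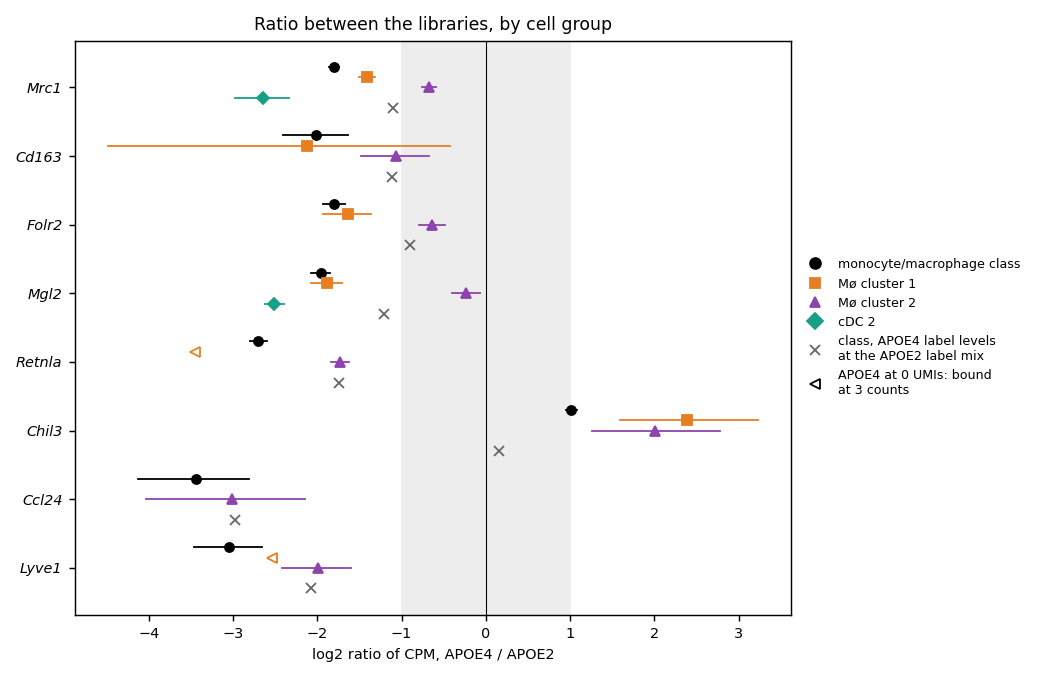
Log2 ratio of CPM (APOE4 over APOE2, horizontal axis) for each of the 8 genes, with 95% counting intervals as lines; symbols are the monocyte/macrophage class, Mø clusters 1 and 2 and cDC 2, crosses are the class at the APOE2 label mix, and open triangles are bounds where APOE4 had 0 UMIs. The grey band spans ratios under 2-fold; Mrc1, Folr2 and Mgl2 lie inside it in Mø cluster 2 and outside it in Mø cluster 1, and the Chil3 cross lies close to 0.

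Levels by label placed the members in 3 patterns. Mrc1, Cd163, Folr2, Lyve1, Retnla and Ccl24 were highest in Mø cluster 2 of both libraries. Mgl2 was highest in cDC 2 of the APOE2 library. In the APOE4 library it stood at 245 CPM in Mø cluster 2, where 1 cell held 109 of the 393 UMIs, and at 231 CPM in cDC 2, an order that rests on that cell. Chil3 was highest in the small G-MDSC 2 label and, next to it, in Monocytes 3.

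**Figure D2:**
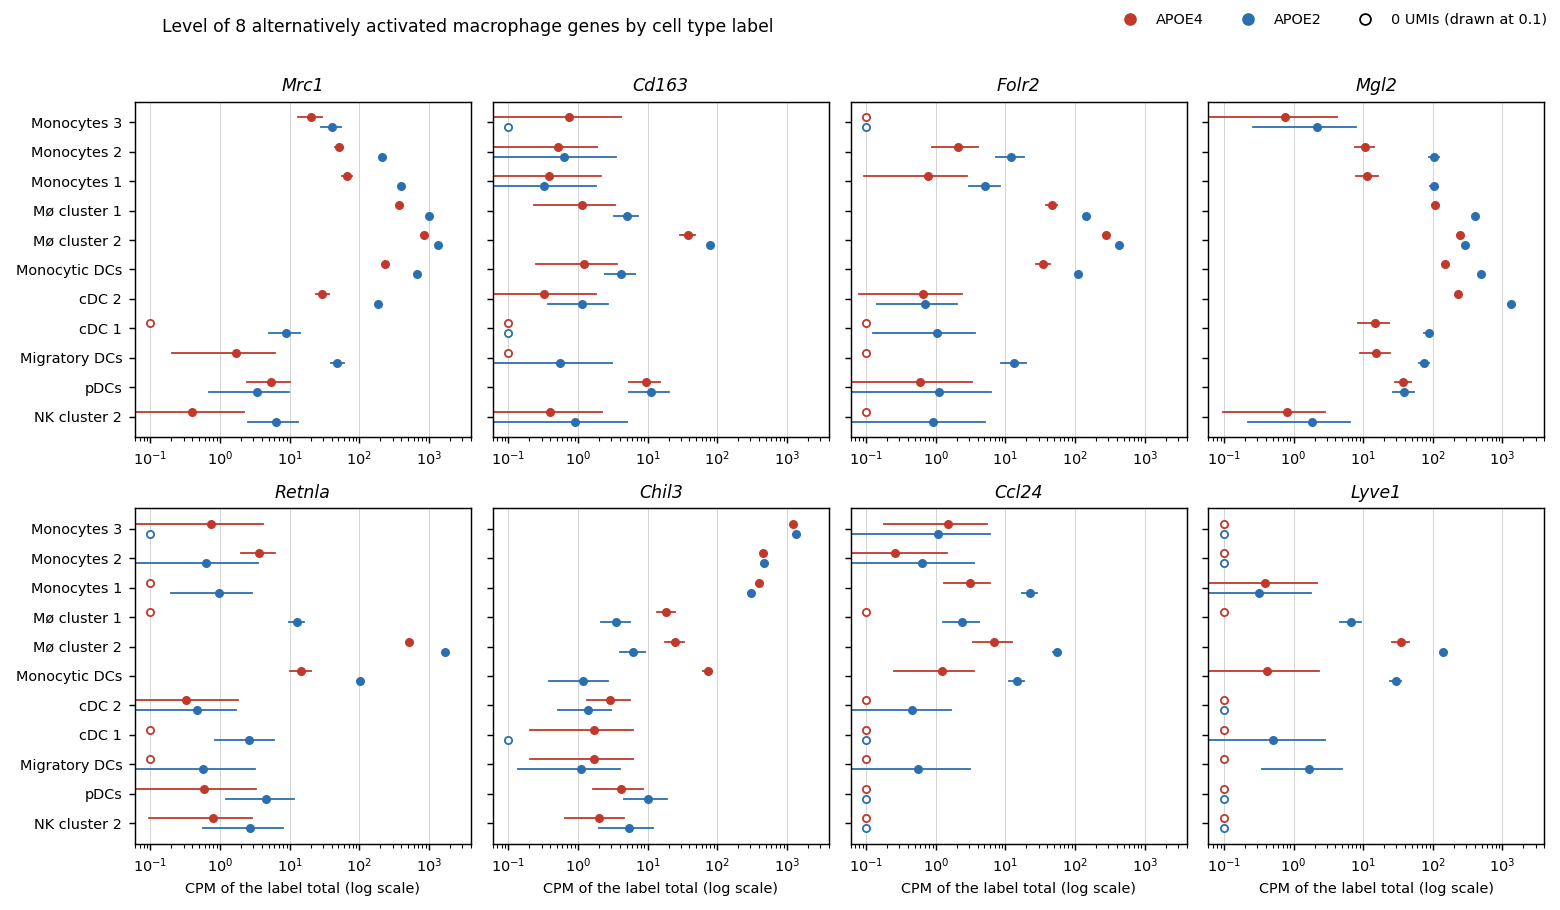
CPM of the label total (log axis) for each of the 8 genes, 1 panel per gene, in 11 cell type labels of the APOE4 library (red) and the APOE2 library (blue), with exact Poisson 95% intervals; open circles are 0 UMIs, drawn at 0.1. In Mrc1 the APOE2 point lies to the right in every macrophage, monocyte and conventional or migratory DC label; Retnla lies far to the right in Mø cluster 2; Chil3 is high in the 3 monocyte labels at nearly the same level in both libraries.

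Mrc1 was the member read in the most macrophage cells. In Mø cluster 2 it had 846 CPM in APOE4 and 1349 CPM in APOE2, a ratio of 0.627 [0.590, 0.665]. In Mø cluster 1 it had 374 CPM in APOE4 and 994 CPM in APOE2, 2.66-fold lower [2.48, 2.85]. Monocytes 1 had 66.7 CPM in APOE4 and 400 CPM in APOE2, 6.00-fold lower [5.12, 7.07]. The ratio was further from 1 in Monocytes 1 and 2 than in the macrophage clusters. In Monocytes 3 it lay between those of Mø cluster 2 and Mø cluster 1, with an interval that holds both. Monocytes 2 had 51.2 CPM in APOE4 against 215 CPM in APOE2, 4.19-fold lower [3.51, 5.02]. Monocytes 3 had 20.2 CPM in APOE4 against 40.0 CPM in APOE2, 1.98-fold lower [1.18, 3.39]. The markers of these labels differed as well, each with all 11 macrophage and all 7 monocyte markers detected. In Monocytes 1 the macrophage list summed to 4153 CPM in APOE4 and 6111 CPM in APOE2, and the monocyte list to 10104 CPM in APOE4 and 4387 CPM in APOE2. In Monocytes 2 the macrophage list summed to 4752 CPM in APOE4 and 8057 CPM in APOE2, and the monocyte list to 13152 CPM in APOE4 and 7447 CPM in APOE2. Monocytes 3 were closer, with macrophage sums of 1771 CPM in APOE4 and 1956 CPM in APOE2 and monocyte sums of 9609 CPM in APOE4 and 8010 CPM in APOE2. The part of these markers in the Mrc1 values, and in those of the other members in these labels, was not tested. The order of the labels was the same in both libraries, from Mø cluster 2 down to Monocytes 3. Monocytes 1 and 2 had Mrc1 intervals that overlapped each other in APOE4 but not in APOE2. All 10 labels with at least 50 cells in each library and at least 20 Mrc1 UMIs had a ratio below 1. Of these, 8 were at least 2-fold lower. The share of genes at least 2-fold lower ranged from 1.63% to 3.85% over the 19 labels with at least 50 cells per library, and was 3.67% in Monocytes 1, 3.32% in Monocytes 2, 1.63% in Monocytes 3, 3.85% in Mø cluster 1 and 3.04% in Mø cluster 2.

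Most cells of Mø cluster 2 had an Mrc1 UMI in both libraries. Of its cells, 90.7% [85.1, 94.7] in APOE4 and 94.7% [92.0, 96.7] in APOE2 had an Mrc1 UMI, and the median was 6 UMIs in APOE4 and 11 UMIs in APOE2. At least 10 Mrc1 UMIs were found in 30.4% of these cells in APOE4 and in 56.3% in APOE2. In cells thinned to 1500 UMIs each, the shares with an Mrc1 UMI were 63.9% in APOE4 and 76.7% in APOE2. NK cells, which should lack Mrc1, gave a background of 0.134% in APOE4 and 3.24% in APOE2, at median depths of 3857 UMIs in APOE4 and 4683 UMIs in APOE2, against 8406 and 9755 UMIs in Mø cluster 2 (APOE4 and APOE2). The unthinned share stood further apart in other labels, at 67.3% in APOE4 and 96.0% in APOE2 in Mø cluster 1, and at 14.8% in APOE4 and 61.2% in APOE2 in Monocytes 1. The background was itself higher in the APOE2 library, though far under the macrophage shares.

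Folr2 and Cd163 were more confined to Mø cluster 2. Folr2 had 274 CPM there in APOE4 and 426 CPM in APOE2, a ratio of 0.644 [0.579, 0.715]. In Mø cluster 1 Folr2 had 46.4 CPM in APOE4 and 145 CPM in APOE2, 3.12-fold lower [2.57, 3.81]. Mø cluster 2 held 64.9% of all Folr2 UMIs of annotated cells in APOE4 and 55.1% in APOE2. Cd163 had 38 CPM in Mø cluster 2 of APOE4 against 79.6 CPM in APOE2, a ratio of 0.477 [0.357, 0.628], and a single APOE4 cell held 23 of the 61 UMIs. Without the cell with most Cd163 UMIs in each library the log2 ratio there was −1.63, against −1.07 with them. Cd163 had enough UMIs for a ratio in 3 other labels. Mø cluster 1 had 3 Cd163 UMIs in APOE4, all in 1 cell, and 27 in APOE2, 4.36-fold lower [1.34, 22.5]. Monocytic DCs had 3 in APOE4 and 18 in APOE2, 3.41-fold lower [0.996, 18.1]. The pDCs held it at 9.42 CPM in APOE4 and 11.2 CPM in APOE2, a ratio of 0.839 [0.358, 2.07] whose interval includes 1.

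Few Lyve1 UMIs lay outside Mø cluster 2 in the APOE4 library. Mø cluster 2 held 56 of 64 Lyve1 UMIs in APOE4 and 584 of 771 in APOE2, or 34.8 CPM in APOE4 against 139 CPM in APOE2 (3.99-fold lower [3.03, 5.35]). Mø cluster 1 had 0 Lyve1 UMIs in APOE4 and 36 in APOE2, a ratio that is at least 5.81-fold lower when 3 counts are put in place of the 0. The cycling myeloid label, named Monocytic DCs by the authors, had 1 Lyve1 UMI in APOE4 and 125 in APOE2, with 38 of those in APOE2 in 1 cell. Of lymphatic endothelium, another known source of Lyve1, the 5 markers summed to 160 CPM in APOE4 and 102 CPM in APOE2 in Mø cluster 2, with Flt4 and Cldn5 at 0 in both libraries and Prox1 at 0 UMIs in APOE4 and 1 UMI in APOE2.

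The Lyve1 difference varied with the share of mitochondrial UMIs, a sign of RNA quality. In Mø cluster 2 of APOE4, Lyve1 stood at 36.5 CPM in the 137 cells under 5% mitochondrial UMIs and at 22.0 CPM in the 24 cells at or above it. In APOE2 it stood at 68.7 CPM in 284 cells under 5% and at 358 CPM in the 114 cells at or above it, which held 366 of the 584 UMIs. Restricted to cells under 5%, the log2 ratio in Mø cluster 2 was −0.91, against −2.0 over all its cells, and over the class it was −2.03, against −3.05. Folr2 had, in the same cells, 255 CPM under 5% and 424 CPM at or above it in APOE4, and 326 and 738 CPM in APOE2. Cd163 had 40.0 CPM under 5% in APOE4 and 59.2 CPM in APOE2, a log2 ratio of −0.57 against −1.07 over all cells of the cluster, so no longer 2-fold lower. Retnla had 387 CPM under 5% in APOE4 and 1535 CPM in APOE2, a log2 ratio of −1.99 against −1.73. The part of RNA quality in these differences was not tested.

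Retnla was spread unevenly over labels and cells. Mø cluster 2 held 93.5% of its UMIs in APOE4 and 92.3% in APOE2, with 513 CPM in APOE4 against 1699 CPM in APOE2 (3.31-fold lower [3.08, 3.57]). Only 18 of 161 APOE4 cells (11.2% [6.76, 17.1]) and 106 of 398 APOE2 cells (26.6% [22.4, 31.3]) of that cluster had a Retnla UMI. Most of those cells carried many, since 13 of the APOE4 cells (8.07%) and 67 of the APOE2 cells (16.8%) had at least 10 UMIs. The cells with most Retnla had 263 UMIs in APOE4, 31.9% of the cluster's total, and 591 UMIs in APOE2, 8.29% of it. Leaving out that 1 cell in each library gave a log2 ratio of −2.16 in Mø cluster 2, against −1.73 with it. In thinned cells the shares with a Retnla UMI were 8.39% in APOE4 and 21.5% in APOE2, and in NK cells the unthinned shares were 0.269% in APOE4 and 1.21% in APOE2. Mø cluster 1 had 0 Retnla UMIs in APOE4 and 68 in APOE2, of which 55 came from 1 cell.

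**Figure D3:**
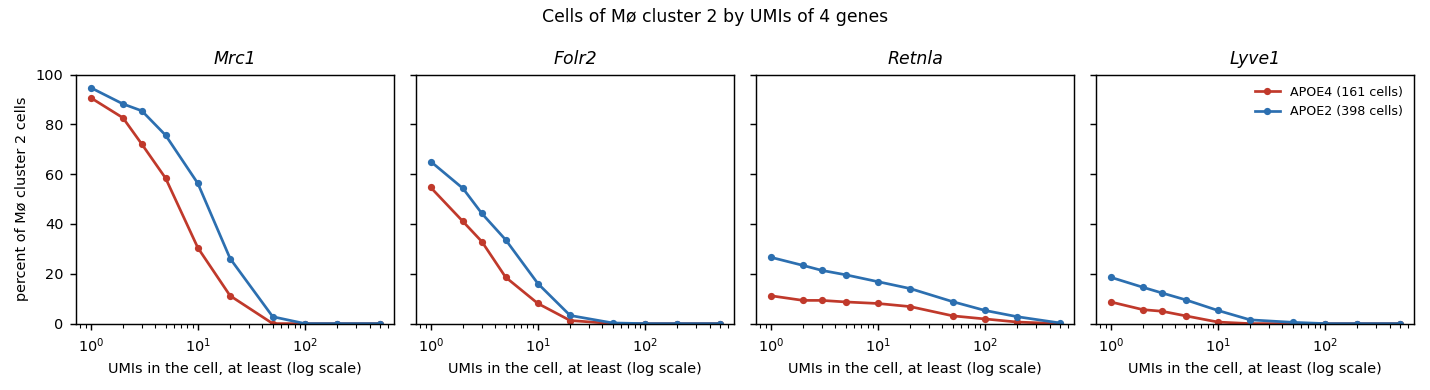
Percent of Mø cluster 2 cells (vertical axis) with at least the number of UMIs on the log horizontal axis, for Mrc1, Folr2, Retnla and Lyve1 in the APOE4 library (red, 161 cells) and the APOE2 library (blue, 398 cells). The Mrc1 curves start close together, at 90.7% in APOE4 and 94.7% in APOE2, and stand at 30.4% in APOE4 and 56.3% in APOE2 at 10 UMIs; the Retnla curves start at 11.2% in APOE4 and 26.6% in APOE2 and stand at 8.07% in APOE4 and 16.8% in APOE2 at 10 UMIs.

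Some genes were lower in cells with Retnla than in the other cells of their cluster in both libraries. Some were higher in both, and others went opposite ways. In APOE4, Pf4, which encodes platelet factor 4, stood at 308 CPM in Mø cluster 2 cells with a Retnla UMI and 2108 CPM in those without. In APOE2 it stood at 1258 CPM with and 3505 CPM without. Arg1, the arginase of alternatively activated macrophages, likewise had 374 CPM with Retnla and 1680 CPM without in APOE4, and 1151 CPM with and 2942 CPM without in APOE2. Higher with Retnla was Mrc1, at 1283 CPM with and 773 CPM without in APOE4, and 1413 and 1318 CPM in APOE2. So was Mgl2, at 334 CPM with and 230 CPM without in APOE4, and 346 and 259 CPM in APOE2. Cd163 went opposite ways, with 96.7 CPM with Retnla and 28.3 CPM without in APOE4, and 37.8 CPM with and 100 CPM without in APOE2. The APOE4 value with Retnla rests on 4 of 18 cells. Ccl24 had 90.1 CPM with Retnla and 38 CPM without in APOE2. In APOE4 it had 4.39 CPM with and 7.25 CPM without, too few UMIs to give an order. There 1 of 18 Retnla cells (5.56%) and 5.59% of the others had a Ccl24 UMI. Cells with Retnla were also deeper, at medians of 12080 UMIs in APOE4 and 12725 UMIs in APOE2, against 8173 and 8894 UMIs in cells without it (APOE4 and APOE2). These genes may have helped to place the cells in the cluster, and the cells of a library are no replicates, so this is a description only.

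Some pairs of members were often found in the same cells. Of Mø cluster 2 cells with a Lyve1 UMI, all 14 in APOE4 and 72 of 74 in APOE2 (97.3%) also had Folr2. Among cells without Lyve1, Folr2 was found in 50.3% in APOE4 and 57.7% in APOE2. Mgl2 was found in 61.1% of Retnla cells and 25.2% of other cells in APOE4, and in 65.1% of Retnla cells and 29.8% of other cells in APOE2. Lyve1 did not go with Retnla in this way. It was in 11.1% of Retnla cells and 8.39% of others in APOE4, and in 14.2% of Retnla cells and 20.2% of others in APOE2. Over all annotated cells, those with both Folr2 and Lyve1 were 0.279% in APOE4 and 2.02% in APOE2, and those with both Mrc1 and Folr2 were 2.71% in APOE4 and 11.8% in APOE2. Deeper cells can hold more pairs, and the part of depth was not tested.

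**Figure D4:**
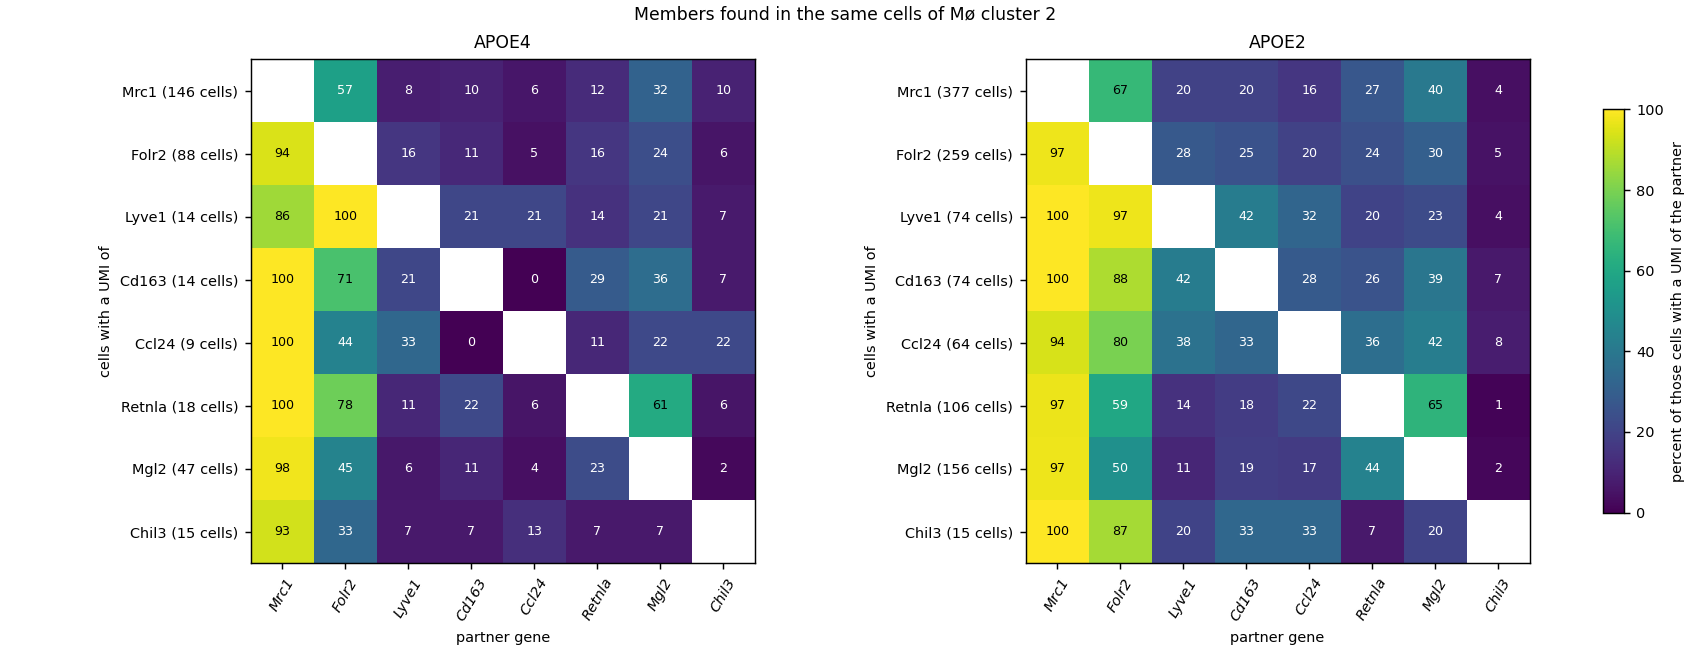
Percent of Mø cluster 2 cells with a UMI of the row gene that also had a UMI of the column gene, in the APOE4 library (left) and the APOE2 library (right), with the number of cells per row gene in its label. Lyve1 rows reach 100% in APOE4 and 97.3% in APOE2 for Folr2, and Retnla rows reach 61.1% in APOE4 and 65.1% in APOE2 for Mgl2, while few cells pair Retnla with Lyve1.

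Mgl2 differed less between the libraries in Mø cluster 2 than in Mø cluster 1, Monocytes 1 and 2 and cDC 2. In Mø cluster 2 it had 245 CPM in APOE4 and 288 CPM in APOE2, a ratio of 0.849 [0.756, 0.952], but 1 APOE4 cell held 109 of its 393 UMIs, and without the top cell of each library the log2 ratio was −0.62, against −0.24 with them. In Mø cluster 1 it had 108 CPM in APOE4 and 400 CPM in APOE2, 3.70-fold lower [3.26, 4.20]. In Monocytes 1 it had 11.5 CPM in APOE4 and 102 CPM in APOE2, 8.89-fold lower [6.11, 13.4], beside the differences in macrophage and monocyte markers of these labels given above. Monocytes 2 had 10.6 CPM in APOE4 and 105 CPM in APOE2, 9.94-fold lower [7.02, 14.3], and there the log2 ratio was −4.10 without the 5% of cells with most UMIs, against −3.31 with them. Of 11 labels with at least 50 cells in each library and at least 20 Mgl2 UMIs, all had ratios below 1 and 9 were at least 2-fold lower.

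The cDC 2, dendritic cells that mostly present antigen to CD4+ T cells, had 231 CPM of Mgl2 in APOE4 against 1319 CPM in APOE2, 5.71-fold lower [5.28, 6.18]. In that label 3.2% of 9627 genes were at least 2-fold lower. An Mgl2 UMI was found in 37.2% [31.7, 43.1] of cDC 2 cells in APOE4 and 75.9% [71.5, 80.0] in APOE2, or 20.7% and 61.2% of thinned cells (APOE4 and APOE2). Mrc1 was also lower there, at 29.5 CPM in APOE4 and 185 CPM in APOE2 (6.28-fold [5.05, 7.88]). Other markers of the label also differed, with the monocyte list at 3270 CPM in APOE4 and 1275 CPM in APOE2 (all 7 markers detected in both), the macrophage list at 797 CPM with Mertk at 0 in APOE4 and 1209 CPM in APOE2, and the cDC2 list at 1482 CPM in APOE4 and 2050 CPM in APOE2. Their part in the Mgl2 result was not tested. The neighbouring paralog Clec10a (chr11:70156197-70170834, +), which encodes the related lectin MGL1, had 399 CPM in cDC 2 of APOE4 and 437 CPM in APOE2, a ratio of 0.913 [0.849, 0.982]. It was lower in APOE4 in cDC 1, with 29.2 CPM in APOE4 and 76.9 CPM in APOE2 (ratio 0.380 [0.254, 0.554]), in Migratory DCs, with 15.2 CPM in APOE4 and 40.3 CPM in APOE2 (0.376 [0.211, 0.638]), and in Diverse, with 50.7 CPM in APOE4 and 102 CPM in APOE2 (0.499 [0.409, 0.608]). Clec10a was higher in APOE4 in Mø cluster 2 (ratio 1.19 [1.04, 1.36]), pDCs (1.17 [1.03, 1.32]) and Monocytic DCs (1.28 [1.06, 1.55]). The longest transcripts of Mgl2 and Clec10a were 86.4% identical over 1040 aligned bases, with 7.06% of the 91-base windows of Mgl2 shared, and how reads were divided between them was not tested. In pDCs Mgl2 had 37.7 CPM in APOE4 and 38.2 CPM in APOE2, a ratio of 0.987 [0.641, 1.54].

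Mgl2 and Mrc1 were also lower in APOE4 in other dendritic labels. In cDC 1 Mgl2 had 14.6 CPM in APOE4 and 87.7 CPM in APOE2, 6.00-fold lower [3.64, 10.5]. In that label 3.55% of genes were at least 2-fold lower, and the monocyte list summed to 1719 CPM in APOE4, with Vcan and F13a1 at 0, and 603 CPM in APOE2. Migratory DCs, cells on their way to lymph nodes, had 18 Mgl2 UMIs in APOE4 and 134 in APOE2, and 2 Mrc1 UMIs in APOE4 and 86 in APOE2, of which 26 lay in 1 cell. The Mgl2 log2 ratio there was −3.65 without the top cell of each library, against −2.31 with it, and the Mrc1 one −2.65 without the 5% of cells with most UMIs, against −4.84. In this label 2.85% of genes were that much lower, and the macrophage markers summed to 255 CPM in APOE4 and 711 CPM in APOE2, the monocyte markers to 774 CPM in APOE4 and 268 CPM in APOE2. The label the authors called Diverse had 85.5 CPM of Mrc1 in APOE4 and 380 CPM in APOE2, with 3.51% of genes that much lower, and 50.7 CPM of Mgl2 in APOE4 and 385 CPM in APOE2. Its monocyte markers summed to 5842 CPM in APOE4 and 2714 CPM in APOE2, and its T cell markers to 1305 CPM in APOE4 and 790 CPM in APOE2. The part of these markers in the results of the 3 labels was not tested.

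Ccl24 had the largest fold of the 8 and the fewest molecules in APOE4, with 26 UMIs over all annotated cells of APOE4 against 435 of APOE2. In Mø cluster 2 it had 6.84 CPM in APOE4 and 55.1 CPM in APOE2, 8.04-fold lower [4.41, 16.3]. In Monocytes 1 it had 3.07 CPM in APOE4 and 22.3 CPM in APOE2, 7.28-fold lower [3.50, 17.5], or a log2 ratio of −2.86 that was −3.51 without the top cell of each library. A Ccl24 UMI was found in 5.59% [2.59, 10.3] of Mø cluster 2 cells in APOE4 and 16.1% [12.6, 20.1] in APOE2, and in 0 of 744 NK cells of APOE4 and 0 of 247 of APOE2, which at 3 counts of the total allows shares of up to 0.403% in APOE4 and 1.21% in APOE2. Ccr3, its receptor gene, had 64 UMIs in APOE4 and 154 in APOE2. Of these, 25 in APOE4 and 29 in APOE2 lay in CD4+ T cells, and 2 in APOE4 and 59 in APOE2 in the skin resident Mø label. The eosinophil granule genes Epx and Prg2 were at 0 in that label in both libraries.

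Chil3 differed from the other members in where it was found and in its direction. Monocytes 3 had 1245 CPM in APOE4 and 1359 CPM in APOE2, a ratio of 0.916 [0.851, 0.986]. Monocytes 2 had 448 CPM in APOE4 and 467 CPM in APOE2, a ratio of 0.960 [0.880, 1.05]. Monocytes 1 had 400 CPM in APOE4 and 301 CPM in APOE2, 1.33-fold higher [1.21, 1.45]. The monocyte labels, which hold nearly all Chil3 of the class, thus differed little and in both directions. The macrophage clusters held few Chil3 UMIs but more of them in APOE4, with 48 UMIs (18.4 CPM) in APOE4 against 19 UMIs (3.53 CPM) in APOE2 in Mø cluster 1. At least 2-fold higher were 3.52% of all genes in that cluster and 2.56% in Mø cluster 2. Mø cluster 2 had 40 UMIs (24.9 CPM) in APOE4 and 26 UMIs (6.20 CPM) in APOE2, 4.02-fold higher [2.39, 6.85], with a UMI in 9.32% [5.31, 14.9] of cells in APOE4 and 3.77% [2.12, 6.14] in APOE2, against NK shares of 0.538% in APOE4 and 0.405% in APOE2. Over 10 labels with at least 50 cells in each library and at least 20 Chil3 UMIs, 5 ratios were above 1 and 5 below. G-MDSC 2 had too few cells to be among them.

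The G-MDSC 2 label held Chil3 at 4813 CPM over 28 cells in APOE4 and 4369 CPM over 29 cells in APOE2. Single cells carried the Chil3 of some other labels. In Monocytic DCs 171 of the 177 APOE4 UMIs lay in 1 cell, which also had 717 S100a8 and 959 S100a9 UMIs, both neutrophil markers here. Of the neutrophil granule genes, that cell had 145 Lcn2, 1 Camp, 0 Ngp and 0 Ltf UMIs. Only 4 APOE4 cells and 2 APOE2 cells of that label had a Chil3 UMI at all. In cycling CD8+ T cells 140 of 142 UMIs in APOE4 and 147 of 149 in APOE2 lay in 1 cell each. Those cells had 1449 Camp and 889 Ngp UMIs in APOE4, and 1150 Camp and 888 Ngp UMIs in APOE2. CD8+ T cells had 1 Chil3 UMI in APOE4 and 26 in APOE2, 25 of these in 1 cell. That cell had 0 UMIs of S100a8, S100a9, Lcn2, Camp, Ngp and Ltf. In Monocytic DCs 3.04% of all genes were at least 2-fold higher, and in CD8+ T cells 3.63% at least 2-fold lower. Whether these cells were doublets was not tested. Chil4, which is 94.4% identical to Chil3 over 1538 aligned bases, had 0 UMIs in both libraries. Only 4.97% of the 91-base windows of Chil3 were shared with it. Retnlg, the neutrophil relative of Retnla, had 173 CPM over all cells in APOE4 and 175 CPM in APOE2, and shared no such window with Retnla.

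Within monocyte labels Mrc1 was found in a smaller share of Chil3 cells than of other cells, apart from nearly equal shares in Monocytes 1 of APOE4. In Monocytes 2, Mrc1 was found in 7.39% of Chil3 cells and 15.5% of other cells in APOE4, and in 31.2% of Chil3 cells and 46.5% of others in APOE2. In Monocytes 3 it was found in 3.28% of Chil3 cells and 6.31% of others in APOE4, and in 5.88% and 16.4% in APOE2. In Monocytes 1 the shares were 14.7% and 14.9% in APOE4, and 52.5% and 66.2% in APOE2.

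Outside the class, the cycling myeloid label, whose proliferation markers summed to 1769 CPM in APOE4 and 1835 CPM in APOE2, also held the members at lower levels in APOE4 apart from Chil3. Monocytic DCs had 237 CPM of Mrc1 in APOE4 and 671 CPM in APOE2, and 151 CPM of Mgl2 in APOE4 and 492 CPM in APOE2. Folr2 stood there at 34.9 CPM in APOE4 and 112 CPM in APOE2, and Retnla at 14.4 CPM in APOE4 and 101 CPM in APOE2. Without the 1 cell with most Retnla in each library its log2 ratio was −4.39, against −2.81 with it. In this label 3.59% of genes were at least 2-fold lower, and its macrophage markers summed to 6404 CPM in APOE4 and 8730 CPM in APOE2. In cells under 5% mitochondrial UMIs the Folr2 log2 ratio of this label was −0.96, and in thinned cells −0.88, against −1.68 over all its cells. In G-MDSC 2, which should lack the members other than Chil3, their low counts lay mostly in APOE2. Mrc1 had 1 UMI in APOE4 and 15 in APOE2, Folr2 0 and 11, Mgl2 0 and 23, Retnla 0 and 43, and Ccl24 0 and 11. Lyve1 went the other way, with 3 in APOE4 and 0 in APOE2. In APOE2, 1 cell held all 43 Retnla UMIs, and 21 of the 23 Mgl2 UMIs lay in 1 cell. The macrophage markers of this label summed to 63.5 CPM in APOE4 and 1154 CPM in APOE2. Stromal cells had 1 Mrc1 UMI in APOE4 and 54 in APOE2, 31 of those in APOE2 in 1 cell, and their macrophage markers summed to 139 CPM in APOE4 and 639 CPM in APOE2 with all 11 detected in both. Free RNA or mixed droplets were not tested as a source.

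The receptor chain and the factor of the pathway differed little between the libraries. Il4ra had 173 CPM in the class in APOE4 and 179 CPM in APOE2, a ratio of 0.967. Stat6 had 72.6 CPM in APOE4 and 68.8 CPM in APOE2, a ratio of 1.06. Of 26 genes listed for IL-4 and IL-13 signalling, 20 had at least 20 UMIs in the class. Of those 20, 3 were at least 2-fold lower and 2 at least 2-fold higher. Among all genes of the class, 6.56% were that much lower and 3.74% that much higher. Il2rg, the common chain that pairs with IL4RA, was at 113 CPM in APOE4 and 53.5 CPM in APOE2, and Csf1, a macrophage growth factor, at 11.9 CPM in APOE4 and 4.82 CPM in APOE2. The cytokine Il10 stood at 9.72 CPM in APOE4 and 21.8 CPM in APOE2. Il4 had 78 UMIs over all cells in APOE4 and 62 in APOE2, most of them in mast cells and basophils. Il13 had 38 UMIs in APOE4 and 59 in APOE2, and 21 of those in APOE4 and 0 in APOE2 lay in CD4+ T cells.

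Of 39 genes listed as IL-4 or IL-13 responses of macrophages, 36 were measured in the class, with 12 lower, 2 higher and 22 neither at 2-fold, where 6.56% of all genes were that much lower and 3.74% that much higher. Their median log2 ratio was −0.65, against −0.07 over all 11508 genes. Among the lower ones, the osteoclast-type proton pump subunit Atp6v0d2 had 16 CPM in APOE4 against 80.4 CPM in APOE2, Arg1 had 275 CPM in APOE4 against 918 CPM in APOE2, and fibronectin (Fn1) had 821 CPM in APOE4 against 1882 CPM in APOE2. Within Mø clusters 1 and 2, Arg1 was 1.92-fold and 1.57-fold lower, and Fn1 1.99-fold and 1.44-fold lower. Atp6v0d2 had under 20 UMIs in Mø cluster 1, and in Mø cluster 2 4.36 CPM in APOE4 and 16.7 CPM in APOE2. The higher ones were Socs1, an inhibitor of cytokine signalling, at 61.6 CPM in APOE4 and 18.4 CPM in APOE2, and the VEGF receptor Flt1, at 31.3 CPM in APOE4 and 7.79 CPM in APOE2. Within Mø cluster 2, 34 of the list were measured, 4 were lower and 3 higher, and the median was 0.01. Within Mø cluster 1, 8 of 32 were lower and 2 higher, with a median of −0.24. Of all genes, 3.04% were at least 2-fold lower and 2.56% higher in Mø cluster 2, and 3.85% lower and 3.52% higher in Mø cluster 1.

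Of a list of 35 genes of resident tissue macrophages, 33 were measured in the class, with 17 lower (against the same 6.56% of all genes), 1 higher and a median log2 ratio of −1.0 in the class. With another scaling, by median-of-ratios size factors, 14 of these were lower. Pf4 had 395 CPM in APOE4 against 1521 CPM in APOE2, the carbonyl reductase Cbr2 28.0 CPM in APOE4 against 106 CPM in APOE2, and the growth factor Igf1 6.53 CPM in APOE4 against 32.0 CPM in APOE2. Ednrb, an endothelin receptor, had 5.88 CPM in APOE4 against 30.9 CPM in APOE2. Within Mø cluster 2, 6 of 31 were lower and 1 higher, with a median of −0.38, where 3.04% of all genes were lower and 2.56% higher. Within Mø cluster 1, 10 of 24 were lower and 1 higher, where 3.85% of all genes were lower and 3.52% higher.

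**Figure D5:**
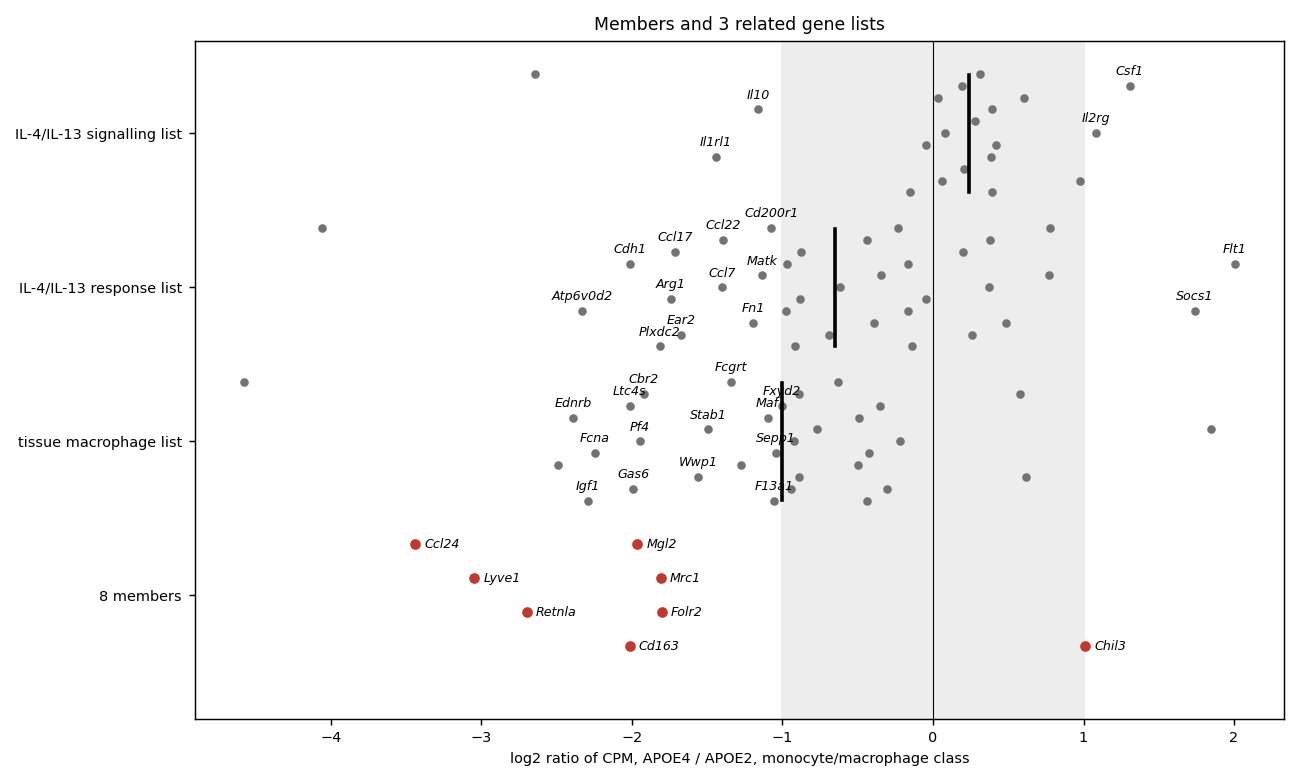
Log2 ratio of CPM (APOE4 over APOE2, horizontal axis) in the monocyte/macrophage class for the genes of 3 lists (grey points, black bars at the medians) and for the 8 members (red). The signalling list centres near 0.24 and the response list near −0.65, while 7 members lie below −1 and Chil3 lies at 1.01; vertical offsets within a row carry no value, and names are given for genes past 2-fold with at least 100 UMIs.

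Over 38 points, 19 labels with at least 50 cells in each library, the genes whose log2(CPM + 1) followed a member most closely of 11757 genes were as follows. Mrc1 went with Nxpe5 (Pearson r = 0.940), the complement gene C1qb (0.936) and Slc13a3 (0.921). Folr2 went with Scamp5 (0.957), Pf4 (0.933) and Fcrls (0.924). Mgl2 went with Dcstamp (0.885) and the MHC class II genes H2-DMb2 (0.874) and H2-Eb1 (0.864). Retnla went with Btbd17 (0.804), Bcam (0.791) and Lyve1 (0.775), and Lyve1 with Bcam (0.866), Car6 (0.828) and Fcna (0.796). For Cd163 the closest was Btbd17 (0.775), for Chil3 Ube2a (0.787) and for Ccl24 Cbr2 (0.729). The points share libraries, depth and clustering, and most labels are near 0 for most members, so these values describe where RNA was found and no more.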

How the data were processed

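The deposited data were 1 matrix of UMI counts per library, with whole-number raw counts per gene and cell barcode made by the authors with Cell Ranger per the file headers and mm10 per the submitters' processing notes, and the authors' cell table with their cell type names and percent of mitochondrial UMIs per cell. Seurat 3.0.2 is named in the submitters' processing notes. How cells were named, and how doublets were treated, is not given in the sources used here; no doublet caller was run. Annotated cells were used, with 36046103 UMIs in APOE4 and a median of 5560 per cell, and a median of 7160 in APOE2.

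UMIs of each gene were summed per cell type name and library and given as CPM of the label's total. A ratio was given from at least 20 UMIs over both libraries, with an exact conditional binomial 95% interval. For a member in a label, at least 50 cells in each library were also needed. CPM had exact Poisson intervals, and shares of cells Clopper-Pearson intervals, or for 0 cells the limit of 3 counts of the total. These cover counting error only. Where a library had 0 UMIs, 3 counts took their place and the ratio is a bound. Genes past 2-fold were called, with no test, since each genotype had 1 library. Cells were thinned to 1500 UMIs, which left out 340 APOE4 cells and 348 APOE2 cells. The ratio and its interval were tested on simulated data.

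All 8 members were named. From each list, genes past 2-fold with at least 100 UMIs could be named, and for each member the 3 genes of highest Pearson r. Il10, Il4, Il13, Ccr3, Il4ra and Stat6 were named as the cytokines and receptors of the pathway, and the marker genes as such. Members and lists were chosen with earlier results of these data known. Alternatives were another scaling, thinning, cells under 5% mitochondrial UMIs, leaving out the deepest 5% of cells, equal label weights, other label sets, leaving out 1 top cell per library and a shared label mix. Python 3.11.15, numpy 2.4.6, scipy 1.17.1, pandas 2.3.3 and matplotlib 3.10.9 were used.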

Additional observations from a re-analysis of the deposited data

Results flagged for a closer look

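Barcodes that the authors left without a cell type, 304 in APOE4 and 398 in APOE2, also held UMIs of the members and enter no comparison above. In APOE4 they held 156 UMIs of Mrc1, 4 of Cd163, 23 of Folr2, 19 of Mgl2, 169 of Retnla, 19 of Chil3, 1 of Ccl24 and 0 of Lyve1. In APOE2 they held 876 UMIs of Mrc1, 31 of Cd163, 261 of Folr2, 224 of Mgl2, 214 of Retnla, 36 of Chil3, 87 of Ccl24 and 72 of Lyve1. As CPM of all UMIs in these barcodes, Mrc1 stood at 120 CPM in APOE4 and 390 CPM in APOE2, lower in APOE4 as among annotated cells, whereas Retnla stood at 130 CPM in APOE4 and 95.2 CPM in APOE2, which is the other order. Those Retnla UMIs lay in 6 barcodes in APOE4 and 15 in APOE2. Chil3 stood at nearly equal levels, 14.6 CPM in APOE4 and 16 CPM in APOE2, from 6 barcodes in APOE4 and 7 in APOE2.

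The APOE4 to APOE2 ratio of Chil3 was 62.3 in Monocytic DCs and 0.00978 in CD8+ T cells, opposite directions in labels of the same libraries. The difference between the labels was not tested. In Monocytic DCs 1 APOE4 cell held 171 of 177 UMIs, and in CD8+ T cells 1 APOE2 cell held 25 of 26.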

How the results depend on the processing

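No paired analysis was possible because each genotype had 1 pooled library. No setting turned a direction among the 8 members: of 88 values recomputed over the class and the Mø cluster 2 shares, 44 stayed within their counting interval, 44 left it and 0 reversed. Settings that left under 20 UMIs of a gene gave no value. All values are log2 ratios, APOE4 over APOE2. The main ones were −1.81 for Mrc1, −2.01 for Cd163, −1.80 for Folr2, −1.96 for Mgl2, −2.70 for Retnla, 1.01 for Chil3, −3.44 for Ccl24 and −3.05 for Lyve1. With size factors Mrc1 was −1.74 and Chil3 1.08. Thinned to 1500 UMIs, Mrc1 was −1.99, Mgl2 −2.20, Retnla −2.52 and Chil3 0.77. In cells under 5% mitochondrial UMIs, Mrc1 was −1.73, Folr2 −1.52, Retnla −3.08, Chil3 0.68 and Lyve1 −2.03. Without the 5% of cells with most UMIs, Mrc1 was −1.88, Mgl2 −2.31 and Retnla −2.38. Without 1 top cell per library, Cd163 was −2.50, Mgl2 −2.17 and Retnla −3.12. At the APOE2 label mix, Mrc1 was −1.11, Cd163 −1.11, Folr2 −0.90, Mgl2 −1.21, Retnla −1.74, Chil3 0.15 and Lyve1 −2.08. These last 2 settings were chosen after seeing the data. With equal weight per label, Mrc1 was −1.54, Cd163 −0.45, Folr2 −1.55, Retnla −1.46, Chil3 0.92, Ccl24 −2.11 and Lyve1 −1.74. Without the skin resident Mø, Mrc1 was −1.87 and Chil3 0.94. In both Mø clusters alone, Mrc1 was −1.05, Cd163 −1.31, Folr2 −1.01, Mgl2 −1.13, Retnla −1.94, Chil3 2.15 and Lyve1 −2.28. For shares of Mø cluster 2 cells with a UMI, thinning gave −0.26 for Mrc1 against −0.06, 3.33 for Chil3 against 1.31 and −3.31 for Ccl24 against −1.52. With all genes of at least 1 UMI, 27.1% were past 2-fold, against 10.3%. The settings that change the label mix or leave out labels are different quantities by construction; for the others the cause was not tested. With 1 pool per genotype, differences between mice, between sorts and between libraries cannot be told apart from the genotype, and thinned counts of Ccl24, Chil3 and Cd163 in Mø cluster 2 rest on few cells.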
